A study of Homo sapiens with 12 samples.

Results

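The proteasome is the protein complex that degrades proteins tagged with ubiquitin. Its genes were taken as a fixed list of 37 symbols covering the 20S core, the 19S cap, the activators and the assembly factor POMP. All 37 were among the 21439 genes of the deposited count table, and 36 had enough counts to be tested. They comprised 7 alpha and 7 beta subunits of the 20S core, 6 ATPase subunits and 12 other subunits of the 19S cap, 4 activators, and POMP. The rule for the list uses names and function and no measured value, though earlier results of these data were known when it was drawn up.

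The cells were DU145, an established human prostate cancer line, and total RNA was sequenced in 12 libraries. In the siRNA arm, 3 libraries came from cells given an siRNA against ATF6 (siATF6) and 3 from cells given Allstar control siRNA (siCtrl), each cultured for 24 h. In the compound arm, 3 libraries came from cells given 10 µM Ceapin-A7 (Ceapin) and 3 from cells given DMSO, each for 12 h. All 4 groups received thapsigargin (Tg in the labels) at 30 nM for 3 h before harvest, so every control is a thapsigargin-treated control. ATF6 is a transcription factor of the endoplasmic reticulum (ER) membrane that is cut free under ER stress, Ceapin-A7 is a small molecule that retains it in the ER, and thapsigargin causes ER stress by blocking the ER calcium pump. A further label on transfection assigns ATF6 siRNA to Ceapin libraries and control siRNA to DMSO libraries, which goes against their titles and the treatment text. No label says that replicates came from separate cultures, so the p-values measure the spread between these libraries, which may be technical.

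In the 20S core, rings of alpha subunits control entry to a chamber lined by beta subunits, of which PSMB5, PSMB6 and PSMB7 carry the active sites. The 19S cap recognises ubiquitin chains, removes them, and uses a ring of ATPases to unfold the substrate and feed it to the core. When proteasome activity is short in mammalian cells, the ER-anchored transcription factor NFE2L1 is released and turns on the subunit genes together through antioxidant response elements in their promoters. Misfolded ER proteins are themselves passed back to the cytosol and degraded by the proteasome, which ties it to the ER stress response.

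ATF6 mRNA checked the labels first. ATF6 stood at 26.6, 25.6 and 25.0 CPM (TMM-scaled counts relative to library size) in siATF6, against 123, 126 and 125 CPM in siCtrl, a log2 fold change of -2.27 ± 0.04 (SE), with an adjusted p of 9.37e-30 by edgeR. ATF6 stood at 73.2, 70.9 and 74.7 CPM in Ceapin, against 69.3, 73.3 and 71.5 CPM in DMSO (log2 fold change 0.03, edgeR adjusted p = 0.748), so the Ceapin libraries did not show the drop seen with the ATF6 siRNA. Totals lay between 17760878 and 19202632 counts per library. The 13 mitochondrial protein genes took 5.72% to 9.22% of the counts, more in each library of the compound arm than in any of the siRNA arm. Of the 4 epithelial markers, all in the table, 3 fell with the ATF6 siRNA and the fourth, CDH1, fell with Ceapin-A7 (log2 fold change -0.14, edgeR adjusted p = 0.00159). Their summed level was 322 to 339 CPM in siATF6, 360.3 to 373 CPM in siCtrl, 1192 to 1245 CPM in Ceapin and 1235 to 1274 CPM in DMSO. The androgen-dependent, leukocyte, fibroblast and endothelial markers in the table summed to at most 1.60, 1.05, 7.07 and 3.79 CPM in any library. In bulk RNA, fewer cells of a type and less RNA per cell cannot be told apart, and the part that the epithelial or mitochondrial shift plays in the proteasome results was not tested.

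With the ATF6 siRNA, most genes of the 19S cap rose by a small amount, while most of the 20S core did not pass the test. Of the 36 tested members, 16 rose in siATF6 relative to siCtrl (44.4% of them, against 16.1% of all 17823 tested genes) and 3 fell (8.33%, against 15.3% of all tested genes). The other 17 did not pass the threshold, an edgeR adjusted p under 0.05 over all tested genes. Among the 18 listed genes of the 19S cap 12 rose and 1 fell, with a median log2 fold change of 0.13. Among the 13 tested genes of the 20S core 2 rose and 1 fell, with a median of 0.04. PSME3, PSME4 and, in the other direction, POMP made up the rest. Log2 fold changes lay above 0 in 9 of the 13 core genes and 15 of the 18 cap genes. Cap and core were not tested against each other. The changes were small: the log2 fold changes of all 36 members ran from -0.34 to 0.46 around a median of 0.06, with standard errors of 0.02 to 0.11. In all 19 members that passed, the 3 siATF6 libraries lay entirely above or entirely below the 3 siCtrl libraries, as they did in 95.5% of all 5589 genes that passed and 41.4% of all tested genes.

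**Figure D1:**
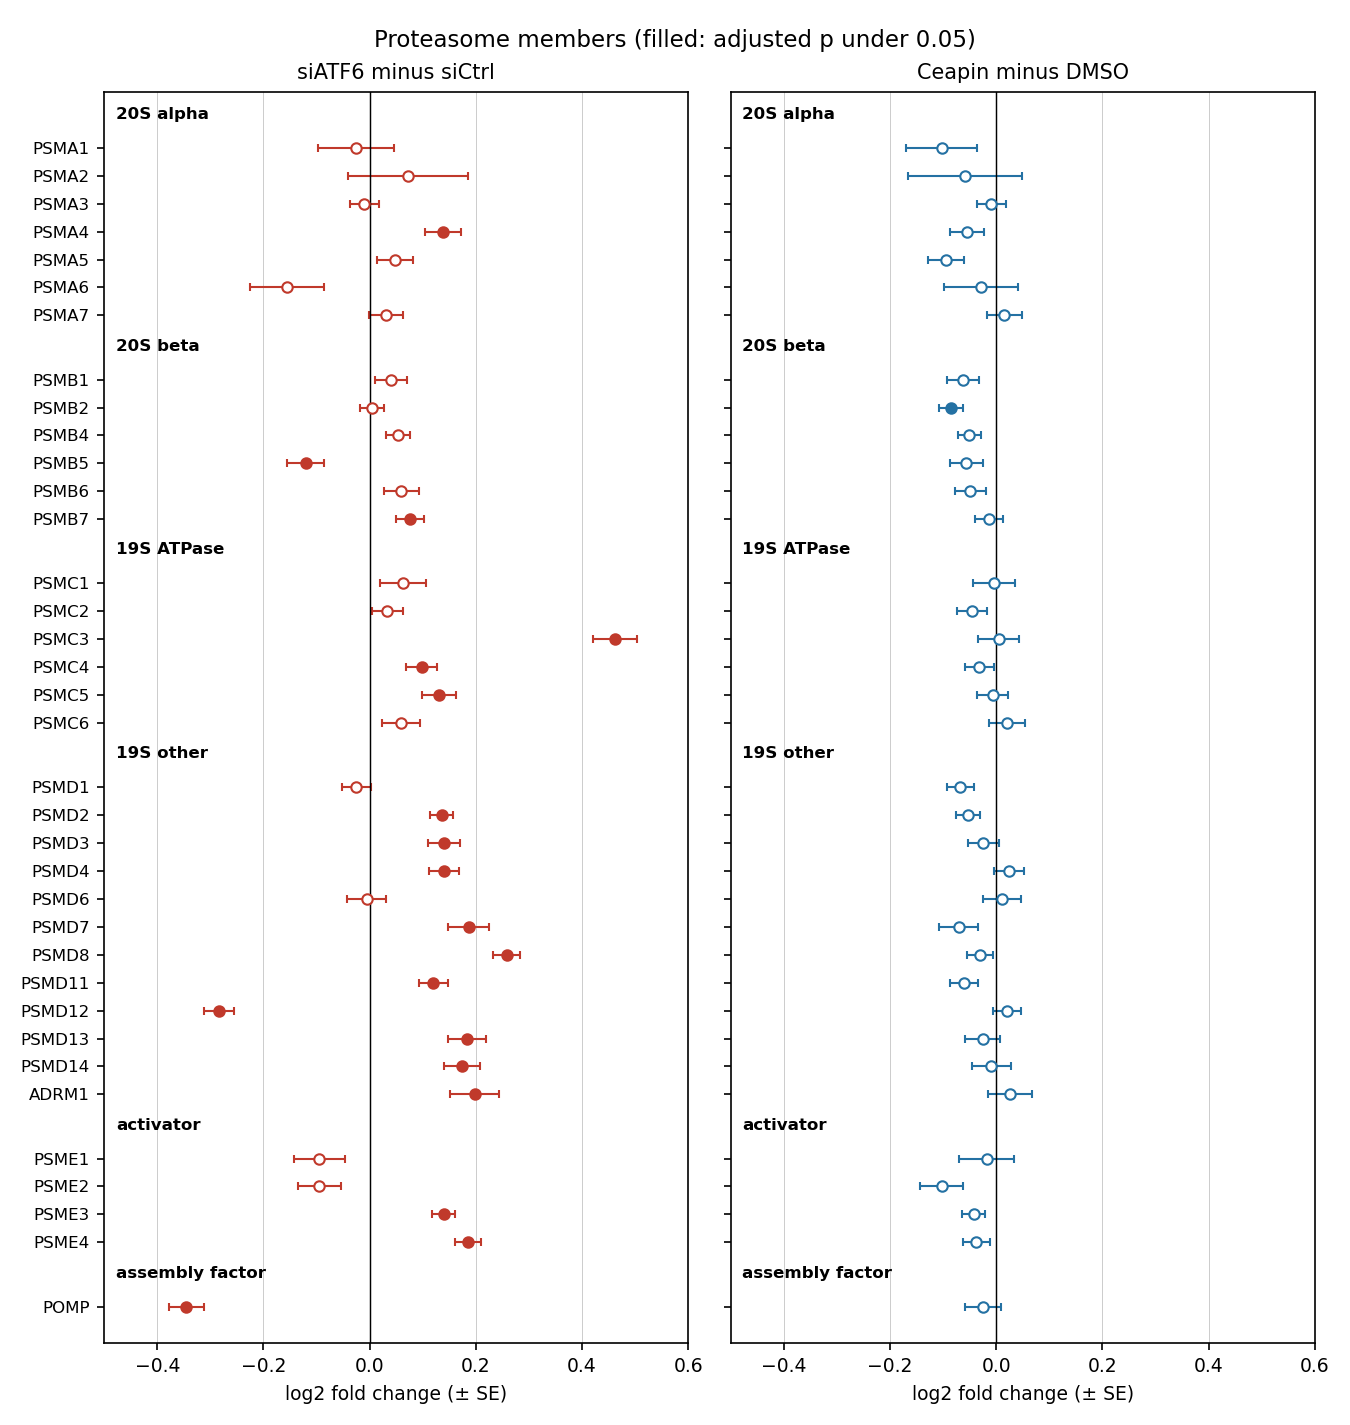
Log2 fold change with its standard error (bars) for the 36 tested members, grouped by role, for siATF6 minus siCtrl (left) and Ceapin minus DMSO (right). Filled points passed an adjusted p under 0.05: 16 rose and 3 fell on the left, while PSMB2, at -0.09, is the 1 filled point on the right.

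In the alpha rings, PSMA4 was the 1 gene of 7 that rose. PSMA4 had 156, 168 and 165 CPM in siATF6, against 153, 139 and 154 CPM in siCtrl. All 3 siATF6 libraries lay above the siCtrl ones, though the lowest of them lay close to the highest siCtrl library. The log2 fold change was 0.14 (with SE 0.03; adjusted p = 0.00166 by edgeR), and it was 0.09 without siCtrl replicate 2, with an adjusted p of 0.054. PSMA3 is shown as a gene without a difference: it had 156, 157 and 153 CPM in siATF6, against 156, 157 and 156 CPM in siCtrl, and the groups overlapped. The other 5 alpha genes had log2 fold changes between -0.16 and 0.07. The lowest of these was PSMA6, at 22.5, 24.6 and 20.4 CPM in siATF6 against 26.1, 25.5 and 23.6 CPM in siCtrl (edgeR adjusted p = 0.0878, and 0.02 without siATF6 replicate 2). Reads of PSMA6 can be shared with the pseudogene PSMA6P1, whose mean of 9.41 CPM was 39.2% of that of PSMA6, so its value is uncertain.

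Among the beta subunits, which include the active sites, the 2 that passed went in opposite directions. PSMB7, the trypsin-like active site, had 194, 200.2 and 188 CPM in siATF6, against 188, 183 and 182 CPM in siCtrl. The groups did not overlap but lay close together (log2 fold change 0.08, with SE 0.03; edgeR adjusted p = 0.0253), and the call was lost without siATF6 replicate 2, siCtrl replicate 2 or siCtrl replicate 3 (adjusted p = 0.213, 0.0946 and 0.0625). PSMB5, the chymotrypsin-like site and main target of the drug bortezomib, had 59.3, 60.5 and 60.8 CPM in siATF6, against 65.5, 66.8 and 63.9 CPM in siCtrl. Every siATF6 library was below every siCtrl library, a log2 fold change of -0.12 (with SE 0.03; adjusted p = 0.00671 by edgeR). The third active-site gene, PSMB6, had a log2 fold change of 0.06 and did not pass (edgeR adjusted p = 0.184). PSMB1, PSMB2 and PSMB4 ranged from 0.00 to 0.05 and did not pass. PSMB3 had 1 to 4 counts in each library and did not enter the model. The annotation behind the counts is not given, and whether these low counts reflect its expression was not tested.

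The ATPase ring contained the largest rise among the tested members. PSMC3, located at chr11:47418769-47426473 on the minus strand (GRCh38), had 90.2, 101 and 101 CPM in siATF6, against 70.1, 74.3 and 67.7 CPM in siCtrl. The siCtrl libraries were the low ones: PSMC3 had 113, 106 and 106 CPM in Ceapin and 104, 111 and 108 CPM in DMSO. The siATF6 level was 1.38-fold that of siCtrl (log2 fold change 0.46, with SE 0.04; edgeR adjusted p = 7.03e-11). PSMC5 had 105, 105 and 106 CPM in siATF6, against 94.2, 95.2 and 99.0 CPM in siCtrl (log2 fold change 0.13, edgeR adjusted p = 0.00152). PSMC4 had 144, 146 and 142 CPM in siATF6, against 137, 134 and 132 CPM in siCtrl (log2 fold change 0.10, edgeR adjusted p = 0.00755; 0.0547 without siATF6 replicate 2). Neither gene's libraries overlapped between the groups. PSMC1, PSMC2 and PSMC6, the other 3 ATPases, had log2 fold changes of 0.03 to 0.06 and did not pass.

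Of the 12 other subunits of the cap, 9 rose, 1 fell, and PSMD1 and PSMD6 did not pass, at -0.03 and -0.01. PSMD8, a subunit of the lid, had 217, 214 and 211 CPM in siATF6, against 184, 175 and 178 CPM in siCtrl. These groups stood well apart, the log2 fold change was 0.26 (with SE 0.03; adjusted p = 4.35e-10 by edgeR), and the Ceapin and DMSO libraries, at 198 to 208 CPM, lay between them. ADRM1, a receptor for ubiquitin chains, had 39.6, 39.7 and 40.5 CPM in siATF6, against 33.6, 36.6 and 34.2 CPM in siCtrl (log2 fold change 0.20, edgeR adjusted p = 0.000856). PSMD7, a lid scaffold subunit that pairs with PSMD14, had 57.6, 58.6 and 61.7 CPM in siATF6, against 52.9, 50.5 and 53.0 CPM in siCtrl (log2 fold change 0.19, edgeR adjusted p = 0.00029). In both genes each siATF6 library exceeded each siCtrl library. ADRM1 overlaps LAMA5 on the opposite strand, and PSMC5 likewise overlaps FTSJ3, with mean CPM at 363% and 61.7% of the member's. Other members also have such partners. The largest of these were MRPL32 for PSMA2 (696%), NRDE2 for PSMC1 (45.1%), DNAJC2 for PSMC2 (43.2%) and PSMA3-AS1 for PSMA3 (36.6%). The kit is stranded, but no source used here gives the strand setting of the authors' quantification, so reads from such partners could be mixed in.

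The remaining 6 rises in the cap had log2 fold changes of 0.12 to 0.18. They were PSMD13 at 0.18, PSMD14 at 0.17, PSMD2, PSMD3 and PSMD4 at 0.14 each, and PSMD11 at 0.12. PSMD14 is the deubiquitinase that removes the chain before degradation, PSMD4 is a second ubiquitin receptor, and PSMD2 is a large scaffold of the base. PSMD2 had 611, 602 and 613 CPM in siATF6, against 559, 559 and 543 CPM in siCtrl, with no overlap (edgeR adjusted p = 7.18e-06). PSMD14 had 113, 103 and 110.1 CPM in siATF6, against 99.8, 92.5 and 97.0 CPM in siCtrl (edgeR adjusted p = 0.000133). PSMD4 had 227, 218 and 224 CPM in siATF6, against 209.7, 205 and 193 CPM in siCtrl (edgeR adjusted p = 0.000191). Both siCtrl groups lay wholly below, as they did for the lid subunits that follow. PSMD13 had 69.4, 66.2 and 67.3 CPM in siATF6, against 59.6, 58.7 and 60.3 CPM in siCtrl (edgeR adjusted p = 0.000101). PSMD3 had 159, 170.3 and 176 CPM in siATF6, against 154, 155 and 149.6 CPM in siCtrl (edgeR adjusted p = 0.000469), the widest spread among its siATF6 libraries of these 3. PSMD11 had 176, 179 and 187 CPM in siATF6, against 165, 166 and 166 CPM in siCtrl (edgeR adjusted p = 0.000998).

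PSMD12, a lid subunit at chr17:67337916-67366627 on the minus strand, was the 1 cap gene that fell. It had 114, 110 and 111 CPM in siATF6, against 133, 136 and 139 CPM in siCtrl, and it had 147, 153 and 153 CPM in Ceapin, against 150.2, 149 and 148 CPM in DMSO. Here the siATF6 libraries were the lowest of all 12. The log2 fold change was -0.28 (with SE 0.03; adjusted p = 7.65e-10 by edgeR). POMP, at chr13:28659104-28678925 on the plus strand, encodes the chaperone on which the beta rings are built. It had 76.4, 74.5 and 77.4 CPM in siATF6, against 96.6, 95.7 and 97.9 CPM in siCtrl, a log2 fold change of -0.34 (with SE 0.03; adjusted p = 1.7e-10 by edgeR). For POMP the siCtrl libraries stood apart from the rest: the Ceapin libraries had 73.0 to 76.9 CPM and the DMSO libraries 75.1 to 78.8 CPM, both overlapping siATF6.

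Of the 4 activators, 2 rose and 2 did not pass. PSME4 encodes PA200, a single-chain cap, and had 224, 219 and 225 CPM in siATF6, against 193, 198 and 197 CPM in siCtrl, with no overlap (log2 fold change 0.18, with SE 0.02; edgeR adjusted p = 3.05e-07). PSME3 encodes the nuclear activator PA28-gamma and had 329, 324 and 327 CPM in siATF6, against 299, 291 and 300.02 CPM in siCtrl (log2 fold change 0.14, edgeR adjusted p = 4.97e-06). PSME1 and PSME2, which form the interferon-inducible cytoplasmic activator, each had a log2 fold change of -0.09 and did not pass (edgeR adjusted p = 0.141 and 0.0774).

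**Figure D2:**
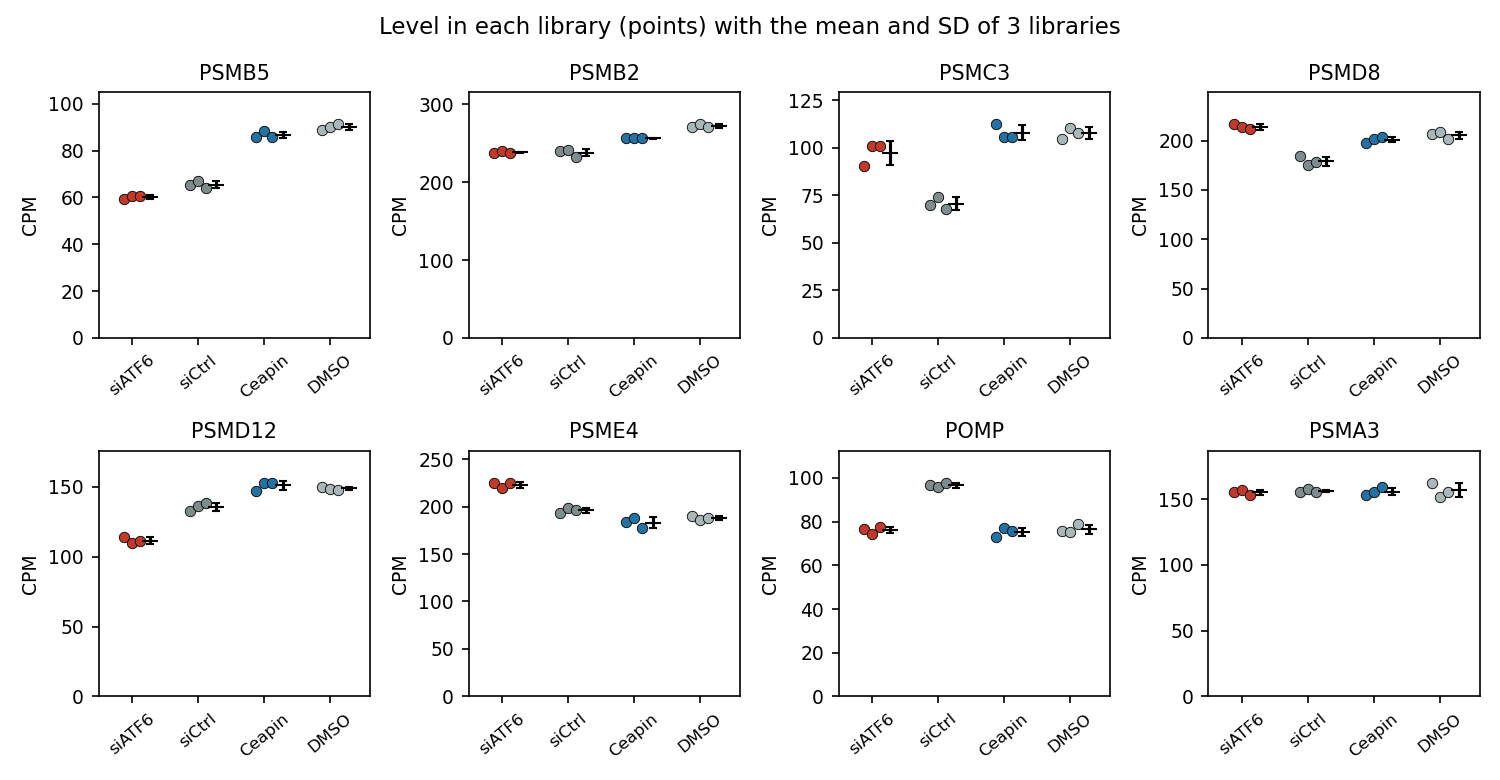
CPM of 8 members in each of the 12 libraries (points), with the mean and SD of 3 libraries (bars), in the order siATF6, siCtrl, Ceapin, DMSO; axes start at 0. PSMC3 and PSMD8 are lowest in siCtrl, PSMD12 is lowest in siATF6, POMP is highest in siCtrl at 95.7 to 97.9 CPM, and PSMA3 overlaps in all 4 groups.

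Position relative to the other arm was recorded for each member that passed. In 11 of the 16 genes that rose, all 3 siCtrl libraries lay below the other 9 libraries, and in the other 5 they did not. Of all 2869 genes that rose, 51.6% had siCtrl below the other 9. Of the 3 members that fell, POMP had siCtrl above the other 9, as did 51.5% of all 2720 genes that fell. The arms differ in treatment and duration, and whether they were handled together is not given in the labels, so levels set across arms carry no test.

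Summed over its tested members, the 19S cap had 2672 ± 27.7 CPM in siATF6 and 2472 ± 28.2 CPM in siCtrl (mean ± SD, n = 3 each). The 20S core had 1624 ± 9.79 CPM in siATF6 and 1583 ± 23.2 CPM in siCtrl (SD, n = 3 each). Both sums were higher in each siATF6 library than in each siCtrl library. The closest pair was in the core, at 1615 CPM in siATF6 and 1604 CPM in siCtrl. The ratio of the cap sum to the core sum was 1.65, 1.62 and 1.67 in siATF6, against 1.56, 1.55 and 1.57 in siCtrl, without overlap. In Ceapin the cap sum was 2824 ± 7.85 CPM, against 2877 ± 35.9 CPM in DMSO (mean ± SD, n = 3 each). The core sum was 1737 ± 5.78 CPM in Ceapin, against 1795 ± 4.57 CPM in DMSO. Both sums were lower in each Ceapin library than in each DMSO library. The closest pair was in the cap, at 2829 CPM in Ceapin and 2836 CPM in DMSO. The ratio was 1.63 in all 3 Ceapin libraries, against 1.58, 1.62 and 1.61 in DMSO. Each Ceapin ratio was above each DMSO ratio, by little in the closest pair. These sums are not scaled for transcript length, so the ratio describes counts and not numbers of subunits.

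**Figure D3:**
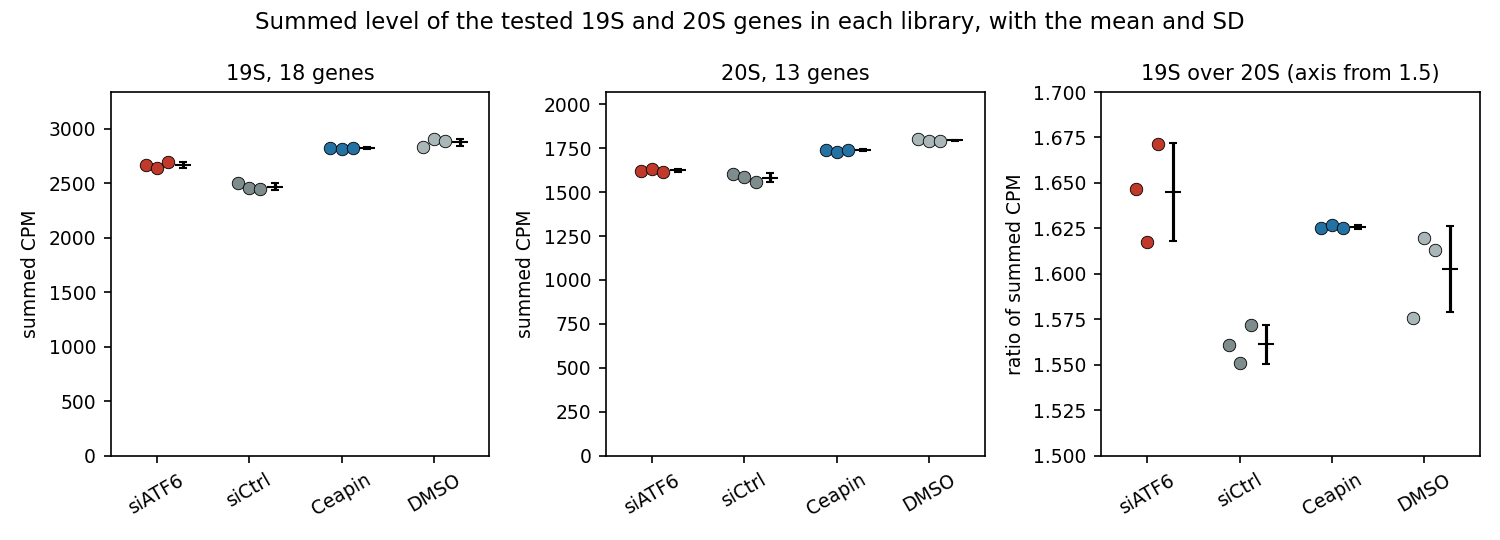
Summed CPM of the 18 listed genes of the 19S cap (left) and the 13 tested genes of the 20S core (middle). Their ratio is on the right, with its axis starting at 1.5. Values are per library, with the mean and SD. The siATF6 libraries have ratios of 1.62 to 1.67, all above the siCtrl libraries at 1.55 to 1.57.

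Ceapin-A7 addresses ATF6 by another route, and there 35 of the 36 members did not pass the test. The 1 that fell was PSMB2 (2.78%, against 2.41% of all tested genes), and 0 members rose by edgeR, DESeq2 or limma-voom (2.21% of all tested genes rose by edgeR). At an unadjusted p under 0.05, 8 members were lower and 0 were higher, against 8.37% lower and 7.34% higher of all tested genes. Beside PSMB2, the 8 were PSMA5, PSMB1, PSMB4, PSMD1, PSMD2, PSMD11 and PSME2. The log2 fold changes ran from -0.10 to 0.03 with a median of -0.03, and 29 of the 36 (80.6%) lay below 0, against 50.6% of all tested genes. PSMB2, a beta subunit of the core at chr1:35599544-35641844 on the minus strand, had 256, 257 and 256 CPM in Ceapin, against 271, 275 and 271 CPM in DMSO. Its groups did not overlap (log2 fold change -0.09, with SE 0.02; edgeR adjusted p = 0.0185). The call did not hold when Ceapin replicate 1, 2 or 3 or DMSO replicate 2 was left out, with adjusted p of 0.0624, 0.0629, 0.0627 and 0.08. PSMA5, a gene of the alpha ring, had 86.5, 83.8 and 82.5 CPM in Ceapin, against 89.1, 92.6 and 88.3 CPM in DMSO. These did not overlap either, but the value of -0.09 did not pass (edgeR adjusted p = 0.123).

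The members that changed most with the ATF6 siRNA showed little with the compound. PSMC3 had a log2 fold change of 0.00, PSMD8 of -0.03, PSMD12 of 0.02 and POMP of -0.02 (edgeR adjusted p from 0.626 to 0.976). PSMB5 had 86.0, 88.4 and 85.8 CPM in Ceapin, against 89.0, 90.2 and 91.4 CPM in DMSO. Its libraries did not overlap, but it did not pass (log2 fold change -0.06, edgeR adjusted p = 0.394).

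The difference between the effects was tested directly, as the siATF6 effect minus the Ceapin effect. It was positive past the threshold for 18 members (18 of the 36, against 12.3% of all tested genes) and negative for 2, PSMD12 and POMP (5.56%, against 11.1%). These included 15 of the 16 members that rose with the ATF6 siRNA and 2 of the 3 that fell. PSMA5, PSMB2 and PSMB4 also passed, although none of them passed the test of the ATF6 siRNA alone. Among the 6 members with the smallest p, the difference in log2 fold change was 0.46 for PSMC3, 0.29 for PSMD8, 0.22 for PSME4 and 0.19 for PSMD2, and it was -0.30 for PSMD12 and -0.32 for POMP. Their edgeR adjusted p ran from 9.87e-08 for PSMD8 to 1.66e-05 for PSMD2. Of the 20 differences, 13 kept their call under every alternative tried, and those of PSMA5, PSMB2, PSMB4, PSMC4, PSMC5, PSMD4 and ADRM1 did not.

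Promoters were compared because the subunit genes are known targets of NFE2L1. The core of the antioxidant response element, TGACNNNGC, was searched on both strands from 250 bases before to 50 after each RefSeq start (GRCh38.p14). It was found in 11 of the 32 members with a promoter entry (34.4%), against 2292 of 11933 tested genes (19.2%). Members that rose held it in 6 of 14 cases: PSME4, PSMA4, PSMD3, PSMC5, PSMC4 and ADRM1. The other members held it in 5 of 18: PSMD1, PSME1, PSME2, PSMB3 and PSMD12. Shares by call were not computed for all tested genes, and a link between the element and the rise was not tested. A gene was counted where any of its listed starts matched, for members and for all tested genes alike. PSMA4 matched only at start 3 and PSMC5 only at start 2, so neither matched at its start 1. PSMA7, PSMB1, PSMB6, PSMB7 and PSMD4 had no entry. The promoters of 4 members are shown, capitals marking the element: PSMD3 and PSMC4, which rose and hold it, PSMC3, which rose most and does not, and PSMD12, which holds it and fell. A match is a description of letters in this window, not a bound site, and its absence draws nothing about NFE2L1.
PSMD3, chr17:39980557-39980856, plus strand: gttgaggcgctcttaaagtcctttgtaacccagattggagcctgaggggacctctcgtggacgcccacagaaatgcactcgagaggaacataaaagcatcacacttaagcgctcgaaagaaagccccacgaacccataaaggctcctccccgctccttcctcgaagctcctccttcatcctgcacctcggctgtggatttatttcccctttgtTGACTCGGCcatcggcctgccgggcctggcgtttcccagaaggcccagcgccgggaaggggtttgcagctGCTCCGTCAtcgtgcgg
PSMC4, chr19:39970915-39971214, plus strand: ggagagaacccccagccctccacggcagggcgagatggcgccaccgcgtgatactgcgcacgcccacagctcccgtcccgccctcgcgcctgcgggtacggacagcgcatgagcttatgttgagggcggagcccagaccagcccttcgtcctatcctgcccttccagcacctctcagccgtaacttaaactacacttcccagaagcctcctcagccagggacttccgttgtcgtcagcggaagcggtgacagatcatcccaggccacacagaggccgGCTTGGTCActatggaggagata
PSMC3, chr11:47426390-47426689, minus strand: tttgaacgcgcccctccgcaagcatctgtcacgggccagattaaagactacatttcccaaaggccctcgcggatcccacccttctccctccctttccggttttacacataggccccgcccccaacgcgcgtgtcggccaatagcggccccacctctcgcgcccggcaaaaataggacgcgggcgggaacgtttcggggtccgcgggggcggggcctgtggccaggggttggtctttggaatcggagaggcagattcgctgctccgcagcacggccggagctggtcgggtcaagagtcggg
PSMD12, chr17:67366528-67366827, minus strand: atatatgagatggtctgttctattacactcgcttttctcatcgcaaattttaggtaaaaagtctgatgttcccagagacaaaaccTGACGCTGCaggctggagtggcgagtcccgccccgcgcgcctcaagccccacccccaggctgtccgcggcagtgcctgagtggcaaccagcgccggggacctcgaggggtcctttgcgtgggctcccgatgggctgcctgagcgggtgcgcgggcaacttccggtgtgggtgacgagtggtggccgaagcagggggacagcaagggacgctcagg

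The 3′ UTRs were compared because an earlier look at these same data had picked out the sequence GAGTCAT among genes that were lower in siATF6, so the shares below are a description and not independent evidence. Of 34 members with an annotated 3′ UTR of at least 50 bases (GENCODE v29), AGTCAT stood in all 3 that fell, in 1 of 15 that rose and in 1 of 16 that did not pass. Over all tested genes it stood in 53.8% of 2487 that were lower, 21.3% of 2639 that were higher and 25.0% of 8147 that did not pass. Whatever the call, AGTCAT stood in 14.7% of the members and 29.7% of all tested genes. Among the pathway genes looked up that fell, FAF2 and UBA6 hold AGTCAT, while PSMG2, UBQLN1 and UBQLN4 do not. Among those that rose, PSMF1, PSMG1 and UCHL5 hold it, while KEAP1, NFE2L1, PSMG4 and SEM1 do not. The longer GAGTCAT was found in the UTR of PSMD12 and in no other member. Its other part, GAGTCA, stood in 1 of 3 that fell, 2 of 15 that rose and 1 of 16 not passing. Over all tested genes GAGTCA stood in 40.3% of those lower, 19.4% of those higher and 22.3% of those that did not pass. Longer UTRs hold more matches: the UTR of PSMD12 has 2927 bases and that of PSMB5 has 238. PSMD12 holds 3 AGTCAT sites and the other 4 members with AGTCAT 1 each. The AGTCAT sites of the members, each with 10 bases on either side and the match in capitals, are given with the gene's log2 fold change in siATF6. Sites that match GAGTCA alone, in PSMA4, PSMC1 and PSMD11, are not shown.
POMP, chr13:28678135-28678160, plus strand, -0.34: tcttgtttatAGTCATctttgtactg
PSMD12, chr17:67339510-67339536, minus strand, -0.28: tttatcctgtGAGTCATtgtgaataat
PSMD12, chr17:67340391-67340416, minus strand, -0.28: taaagctatcAGTCATttagtagaat
PSMD12, chr17:67340792-67340817, minus strand, -0.28: taaaattggaAGTCATtaaaaaaaga
PSMB5, chr14:23025918-23025943, minus strand, -0.12: atgtgttaccAGTCATtaatgagctg
PSMB2, chr1:35602461-35602486, minus strand, 0.00: cctataatccAGTCATctgcttcctg
PSMD11, chr17:32482709-32482734, plus strand, 0.12: aagcttagtaAGTCATagacgtgcag

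Genes outside the member list that assemble or bind the proteasome moved in both directions with the ATF6 siRNA. The counts below stand against 16.1% of all tested genes higher and 15.3% lower with the ATF6 siRNA, and 2.21% higher and 2.41% lower with Ceapin-A7. Of 8 further assembly chaperones, 3 rose (PSMG4 at 0.33, PSMD9 at 0.24 and PSMG1 at 0.18), and PSMG2 fell, at -0.38. PSMG2, the partner of PSMG1 in building the alpha ring, had 56.4, 57.6 and 56.1 CPM in siATF6, against 79.4, 70.3 and 72.2 CPM in siCtrl (edgeR adjusted p = 5.14e-09). The groups were far apart, while PSMG1 lay above its siCtrl level in each siATF6 library. Of 10 other proteasome-bound genes, 4 rose (UCHL5 and SEM1 at 0.14 and 0.13, PSMF1 at 0.09 and ZFAND5 at 0.06) and the deubiquitinase USP14 fell, at -0.07. Left-out libraries ended the calls of PSMD9 (adjusted p up to 0.113), SEM1 (0.0929), PSMF1 (0.056), ZFAND5 (0.112) and USP14 (0.115). Of the 3 immunoproteasome subunits listed, PSMB8 and PSMB9 were not found in the count table. PSMB10, with 44 to 64 counts per library, did not pass in either comparison. Its log2 fold change was -0.01 with the ATF6 siRNA (SE 0.16) and 0.08 with Ceapin-A7 (SE 0.15). With Ceapin-A7, the 8 chaperones had log2 fold changes between -0.07 and 0.08 and the 10 bound genes between -0.09 and 0.05, with no call.

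Genes listed around NFE2L1 were called in each comparison, and whether they act on the members in these cells was not tested. Of all tested genes, 16.1% were higher with the ATF6 siRNA and 2.21% with Ceapin-A7. Of 9 genes around NFE2L1, 3 rose with the ATF6 siRNA: NFE2L1 itself at 0.18, DDI2, the protease that cuts it, at 0.17, and KEAP1, the adaptor that marks the related factor NFE2L2 for degradation, at 0.37. NFE2L1 had 367, 385 and 385 CPM in siATF6, against 326, 339 and 335 CPM in siCtrl, without overlap (edgeR adjusted p = 1.55e-07). With Ceapin-A7 2 of the 9 rose: MAFF, a partner of NFE2L1, at 0.41 and BACH1, a repressor at the same elements, at 0.22. BACH1 had 77.5, 81.0 and 79.6 CPM in Ceapin, against 66.6, 66.9 and 70.4 CPM in DMSO (edgeR adjusted p = 6.09e-05), and these did not overlap. Neither of these was called with the ATF6 siRNA.

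Among 5 ubiquitin and E1 genes, UBA6, an activating enzyme, fell with the ATF6 siRNA, at -0.18 (edgeR adjusted p = 4.86e-06), and the other 4 did not pass, so 1 of 5 was lower, near the share of all tested genes (15.3%). UBA6 had 126, 119 and 123 CPM in siATF6, against 137, 139.6 and 138 CPM in siCtrl, without overlap. Of 10 genes that deliver substrates, UFD1, a cofactor of the unfoldase VCP, rose with the ATF6 siRNA, at 0.15. FAF2, UBQLN4 and UBQLN1 fell, at -1.01, -0.25 and -0.15. FAF2, which recruits VCP to the ER membrane, had 119, 108 and 111 CPM in siATF6, against 228, 227 and 225 CPM in siCtrl (edgeR adjusted p = 1.19e-23). Its Ceapin and DMSO libraries had 218 to 230 CPM, so siATF6 stood apart. With Ceapin-A7, SQSTM1 rose by 0.08 while VCP and UBQLN4 were at -0.10 and -0.09 (edgeR adjusted p = 0.0449, 0.00277 and 0.0277). The UBQLN4 call was lost without Ceapin replicate 2 or 3 or DMSO replicate 1 or 2 (adjusted p up to 0.154). That of SQSTM1 was lost without Ceapin replicate 1 or 3 or any 1 of the DMSO libraries (up to 0.271). It was also lost without siATF6 replicate 3 or siCtrl replicate 1 (edgeR adjusted p = 0.0595 and 0.0539). DESeq2 size factors or no filter on low counts ended it too (edgeR adjusted p = 0.0516 and 0.0741).

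**Figure D4:**
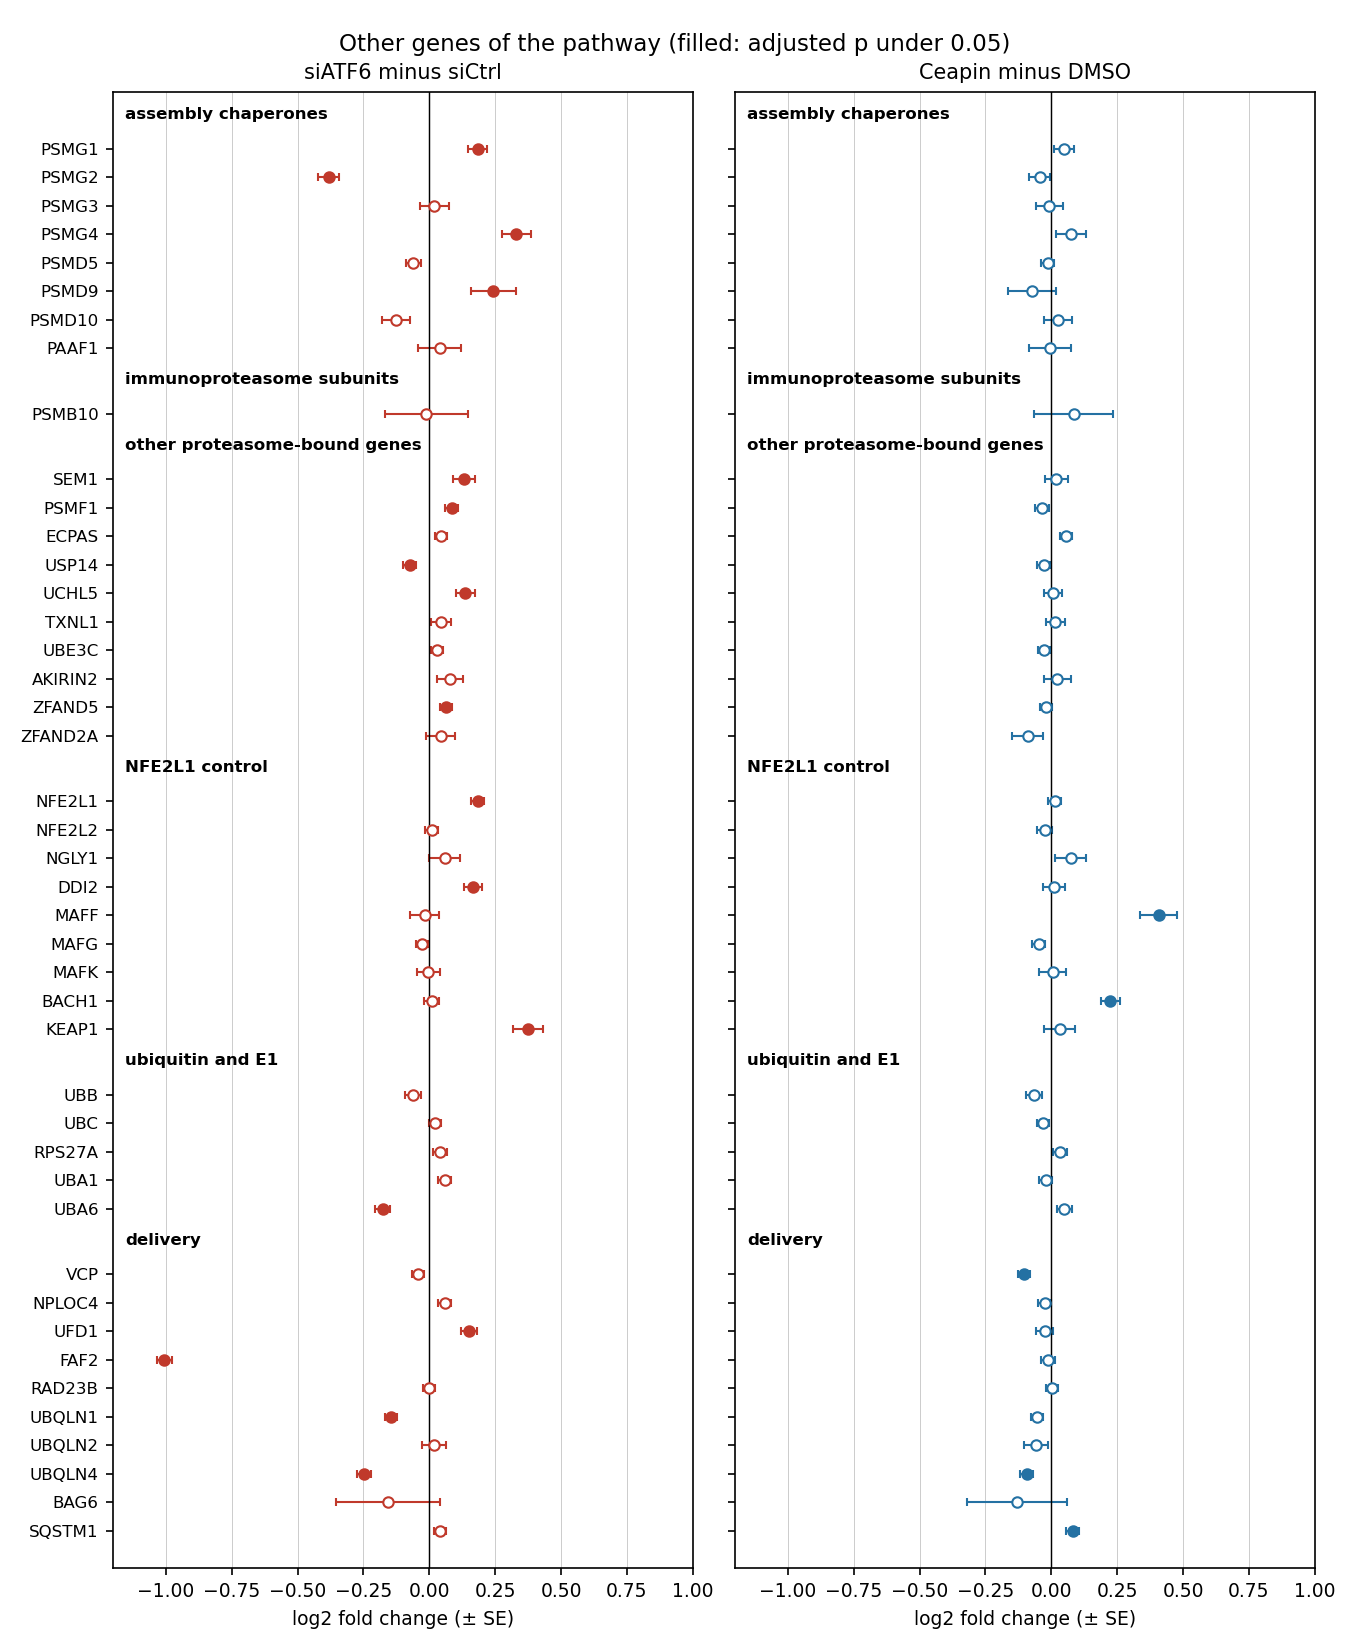
Log2 fold change with its standard error for other genes of the pathway, by list, for siATF6 minus siCtrl (left) and Ceapin minus DMSO (right); filled points passed an adjusted p under 0.05. FAF2 at -1.01 and KEAP1 at 0.37 are the extremes on the left, and MAFF at 0.41 is the highest on the right.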

How the data were processed

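Per the labels, total RNA libraries were made with a stranded TruSeq kit. Per the submitters' processing notes, the authors used Salmon with build hg38; no source used here gives its version or the annotation. The deposited values are expected counts, whole numbers that are not scaled for depth, and the table holds genes with at least 1 count in all 12 libraries. Totals were 17760878 to 19202632. Groups came from sample titles; columns headed NC were assigned to siCtrl by elimination, keeping their numbers.

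The expected counts of all 12 libraries entered one model in edgeR 4.0.16 (R 4.3.3). Low genes were removed by filterByExpr (17823 remained), libraries were scaled by TMM, and each group had its own mean in the quasi-likelihood model (8 residual df). Two-sided p-values were adjusted by Benjamini-Hochberg over all tested genes, with 0.05 as threshold. The pipeline was tested on simulated data. Alternatives used DESeq2 1.42.0 (test or size factors), limma-voom (limma 3.58.1), library totals, other filters, the 6 libraries of a comparison, a replicate block, an adjusted p under 0.01, and each library left out.

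A few items are not reported here. Members, pathway lists and motifs were chosen with earlier results of these data known. Library values are given for up to 3 called members per class and direction with the largest log2 fold change, for the 6 smallest p in the difference, and for up to 3 genes per pathway list with the smallest p. PSMA3, PSMA5, PSMA6, the library values of PSMD3, PSMD4, PSMD11, PSMD13 and PSMD14, CDH1, and the other genes named in counts of 5 or fewer were chosen after their values were seen. Positions and 3′ UTRs are GENCODE v29 (GRCh38), promoters RefSeq (GRCh38.p14).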

Additional observations from a re-analysis of the deposited data

Results flagged for a closer look

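The effect of the ATF6 siRNA differed from that of Ceapin-A7 for 20 members, by edgeR's test of the siATF6 effect minus the Ceapin effect (adjusted p under 0.05, n = 3 libraries per group). In the core, the differences in log2 fold change were 0.192 for PSMA4, 0.1427 for PSMA5, 0.0894 for PSMB2 and 0.1042 for PSMB4. In the ATPase ring they were 0.4568 for PSMC3, 0.1294 for PSMC4 and 0.1378 for PSMC5. In the rest of the cap they were 0.189 for PSMD2, 0.1642 for PSMD3, 0.1154 for PSMD4, 0.2574 for PSMD7, 0.2888 for PSMD8, 0.1807 for PSMD11, 0.209 for PSMD13, 0.1832 for PSMD14 and 0.1715 for ADRM1, against -0.3044 for PSMD12. The activators PSME3 and PSME4 differed by 0.1821 and 0.2227, and POMP by -0.3204. The arms differ in agent, route and duration, which cannot be told apart.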

How the results depend on the processing

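No called result changed direction under any alternative run. With the ATF6 siRNA, 14 to 17 members were higher and 3 to 4 lower when each library was left out, and the median log2 fold change of the members ran from 0.0544 to 0.0793; 16 of the 19 calls held throughout, and those of PSMA4, PSMB7 and PSMC4 did not. PSMA6 passed without siATF6 replicate 2, PSMB4 with the filter at 1 CPM and without siCtrl replicate 1 or Ceapin replicate 2, and PSME2 with library totals. With Ceapin-A7, 0 members were lower at an adjusted p under 0.01 and 0 to 1 when each library was left out, and 472 genes were called at 0.01 against 823 at 0.05. The median of the members for Ceapin minus DMSO was -0.0234 with library totals, -0.0261 with the filter at 1 CPM, and -0.0415 to -0.0275 when each library was left out. For the difference between the effects, 13 members were called at 0.01 and 15 with library totals, against 20, and the median was 0.0871 with library totals, against 0.1062. The replicate block gave 16 members higher and 3 lower with the ATF6 siRNA, 1 lower with Ceapin-A7 and 20 in the difference, and changed no count of members. Replicate numbers pair nothing here: deviations of same-numbered libraries correlated between -0.012 and 0.0296. With 3 libraries per group and standard errors of 0.02 to 0.11, smaller changes, above all in the thinly counted PSMA1, PSMA2 and PSMA6, may not have been detectable.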
